A study of Homo sapiens with 60 samples.

Results

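The FOS and JUN genes encode the subunits of activator protein 1 (AP-1), a pair of basic leucine zipper proteins that binds DNA as a dimer. They were chosen by symbol: FOS, FOSB, FOSL1 and FOSL2 of the FOS family and JUN, JUNB and JUND of the JUN family. These are 7 of the 57665 genes deposited, and all 7 passed the filter on low counts. They were followed in 60 RNA sequencing libraries of the human osteosarcoma line U2OS expressing Dmr-PERK, the kinase domain of mouse PERK joined to a DmrB domain that pairs when the ligand AP20187 is added. PERK phosphorylates the translation factor eIF2 alpha, which lowers protein synthesis and starts the integrated stress response. The genotype was given as WT in all libraries, which all carried the construct, untreated ones included.

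AP20187 was given at 0.01, 0.2 or 3 nM and cells were collected after 1, 2, 4, 8, 16 and 24 h, with 3 libraries in each of the 18 combinations. The middle dose, written with 3 decimals in the sample titles, is rounded here as in the study's design. The untreated libraries formed 2 sets of 3, both labelled 0 h, here called untreated set 1 (UT in the labels) and untreated set 2 (UT 2). The labels did not tie a set to a dose, and no untreated culture was collected beside each time, so that the ligand and the hours since its addition cannot be told apart. The study's design describes the low dose as leaving protein synthesis nearly intact, the middle dose as lowering it in part and the high dose as lowering it most. The labels call the replicates triplicates and do not tell of separate cultures, so p-values measure only the spread between them, which may be technical. The libraries fell into 39 shallow ones (untreated set 1, 0.01 and 0.2 nM, 5598803 to 10367667 counts) and 21 deep ones (untreated set 2 and 3 nM, 20713981 to 28436445 counts). The share of counts from mitochondrially encoded mRNA was 8.84% ± 0.615 (SD, n = 3) for untreated set 1, 4.44% ± 0.053 for set 2 and 3.37 to 5.43% for the treated groups. All 6 mesenchymal markers on a fixed list, among them VIM, SPARC and RUNX2, had a mean of at least 1 TPM (a unit of transcript abundance corrected for length and depth), as did 5 of 6 epithelial markers (summed 590.5 to 1326 TPM per library), while 0 of 6 blood and 0 of 6 endothelial markers did. A pair of libraries stood apart from their replicates by the chi-square per degree of freedom. This was taken over genes above a floor of summed counts in the 2 libraries compared. It was 21.15 and 21.86 for 3 nM 4 h replicate 1 against the other 2, which differed by 1.682. For 3 nM 2 h replicate 3 it was 9.026 and 7.71, and the other 2 of that group differed by 2.875. The 3 nM 4 h library was the lowest of its group in TPM for all 7 members. Without either library all 35 member results that rest on it kept direction and call, and log2 fold changes moved by at most 0.083 and 0.181. The largest of these moves concerned FOSB, and without 3 nM 2 h replicate 3 the log2 fold change of JUN from 1 to 2 h at 3 nM went from -0.25 to -0.33.

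FOS proteins cannot pair with each other and need a JUN partner, whereas JUN proteins also pair among themselves and with the ATF and MAF families. FOS and FOSB are immediate early genes, which cells transcribe within minutes of serum, growth factors or stress without new protein synthesis, and their mRNAs are short-lived. FOSL1 (Fra-1) and FOSL2 (Fra-2) follow later and lack the strong activation domain of FOS, JUNB activates more weakly than JUN, and JUND is made in resting cells. In bone, FOS is known for its part in osteoclast formation and for osteosarcomas in mice that overexpress it.

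Stretches of the promoters and 3′ ends of the members are shown first, as background to their values. Promoter sequences from RefSeq (GRCh38.p14, 250 bases before the start site) matched 6 of the 7 members by symbol, and FOSL1 had no entry. They were searched on both strands for TGACG, the core of the cyclic AMP response element, to which CREB and ATF proteins bind. All 6 held it, against 21.2% of 35116 promoters. The full element TGACGTCA, which contains TGACG, was in JUND alone of the 6 and in 1.65% of all. JUN held TGACATCA, its AP-1-like site, which 2.37% of all promoters held. The 7-base AP-1 element TGACTCA was in 0 of the 6 and in 4.2% of all. TATAAA was in FOS, FOSB and JUNB and in 10.7% of all. For each promoter the 30 bases around 1 match (in capitals) are printed 5′ to 3′ on the strand of the gene:
FOS, chr14:75278752-75278781, plus strand: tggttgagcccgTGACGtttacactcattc
FOSB, chr19:45467924-45467953, plus strand: gcaaggggcgggTGACGtaagcaggggggc
FOSL2, chr2:28392780-28392809, plus strand: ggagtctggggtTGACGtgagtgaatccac
JUN, chr1:58784096-58784125, minus strand: aggccttggggTGACATCAtgggctatttt
JUNB, chr19:12791337-12791366, plus strand: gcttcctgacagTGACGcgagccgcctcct
JUND, chr19:18281804-18281833, minus strand: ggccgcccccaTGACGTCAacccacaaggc
The matches of FOS, FOSB, FOSL2 and JUN began 64, 60, 66 and 67 bases before the RefSeq start, and those of JUNB and JUND 137 and 200 bases before it. In GENCODE 29, whose FOS, FOSL2 and JUN models start further upstream, the stretches of these 3 genes overlapped their first exons and 5′ untranslated regions, and the other 3 lay upstream of the gene. The FOS stretch overlapped only at its 3′ end, and its TGACG lay upstream of the GENCODE 29 start of FOS at 75278774. A match is a description of the letters and not a bound site.

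The pentamer ATTTA, the core of the AU-rich elements through which the ZFP36 proteins mark mRNAs for decay, was counted in the 3′ untranslated region of 1 principal transcript per gene. FOS held 5 in 806 bases, as many or more than which were held by 7.02% of the 1082 regions within 10% of that length. JUNB held 2 in 500 bases (26.7% of regions of like length held as many or more), JUN 3 in 1287 (46%), FOSL2 9 in 4864 (59.3%), FOSL1 1 in 666 (64.3%), JUND 1 in 681 (65%) and FOSB 3 in 2166 (69.3%). The 30 bases centred on the closest pair of pentamers in FOS and FOSL2 (GRCh38), with each pentamer in capitals, were:
FOS, chr14:75282057-75282086, plus strand: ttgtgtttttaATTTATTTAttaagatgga
FOSL2, chr2:28416348-28416377, plus strand: aattgacATTTAttttattATTTAttttaa

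**Figure D1:**
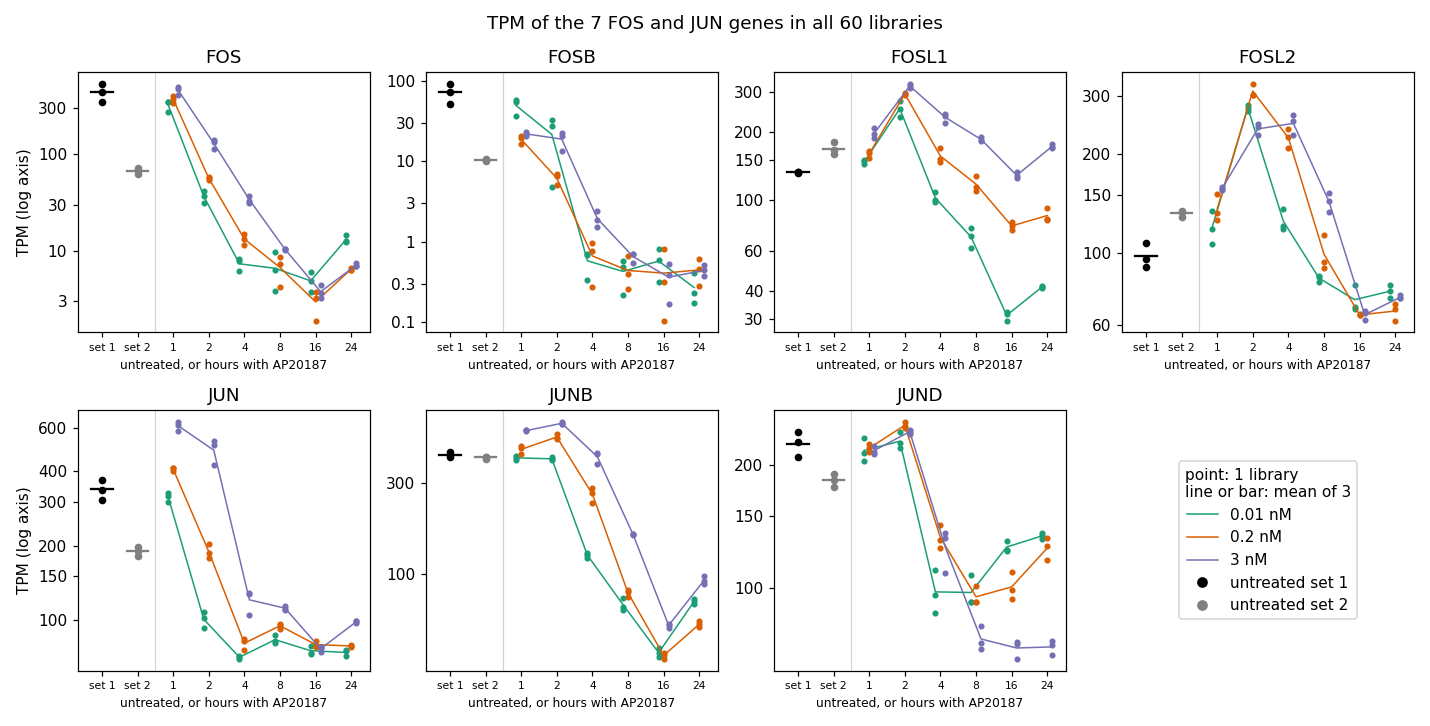
TPM of each of the 7 genes on a log axis, for both untreated sets and for each dose over 1 to 24 h, with 1 point per library and lines or bars at the mean of 3. FOS and FOSB fell steeply within 4 h at each dose, FOSL1 and FOSL2 stood highest at 2 or 4 h, and the 3 doses of FOSL1 lay apart at all 6 times.

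Among the 7 members the untreated sets differed most in FOS and FOSB. FOS (ENSG00000170345.9, chromosome 14, 75278774 to 75282230) stood at 353, 449 and 543 TPM in the libraries of set 1 and at 62.9, 68.6 and 72.4 TPM in those of set 2. FOSB (ENSG00000125740.13, chromosome 19, 45467995 to 45475179) stood at 51.4, 72.6 and 92.9 TPM in set 1 and at 10.5, 10.2 and 10.7 TPM in set 2. The 2 sets did not overlap for either gene, and set 1 was also the more scattered. On counts FOS was lower in set 2 by 2.93 on the log2 scale (SE 0.0855, edgeR adjusted p = 3.08e-35), and FOSB by 2.96 (SE 0.193). JUN was lower in set 2 by 1.04 and JUND by 0.61, both with no overlap, whereas JUNB, called lower by 0.27, overlapped in TPM (410.2 to 436 against 403 to 414). FOSL1 lay apart in TPM (132 to 134 against 159 to 180), but its difference of 0.11 on counts was not called (edgeR adjusted p = 0.0952), while with no filter (0.15, edgeR adjusted p = 0.00934) and with limma on log2(TPM + 0.1) (0.34, adjusted p = 2e-05) it was. FOSL2 differed by 0.11, and this call was lost without set 1 replicate 2 or 3 or set 2 replicate 1 or 2 (log2 fold change 0.091, 0.067, 0.071 and 0.071). In all, 1 of the 7 members was called higher in set 2 and 5 lower, where 14.9% of the 18040 tested genes were called higher and 14% lower. The share of mitochondrial mRNA and the depth also differed between the sets, and their part in this was not tested. Each set is therefore used on its own below. In RNA from whole cultures, fewer cells of a type and less RNA per cell cannot be told apart.

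The first hours read differently against the 2 baselines. At 3 nM and 1 h all 7 members were called higher than untreated set 2 (12.7% of all genes were called higher and 14.2% lower), but only 4 were called higher than set 1 and 3 lower (24.1% and 21.8% of all genes). The FOSB call against set 2 was lost with limma on log2(TPM + 0.1) (1.06, adjusted p = 0.219), and the JUND call of -0.40 against set 1, where the libraries overlapped in TPM, with limma at either pseudocount (-0.055, adjusted p = 0.549 and 0.547). The FOSL1 call against set 2 (0.13) was lost without set 2 replicate 2 or 3 (0.14 and 0.098) or 3 nM replicate 1 (0.093), and in a fit of the deep libraries alone (0.11). The JUNB call against set 1 (0.12) was lost without set 1 replicate 2 or 3 or any of the 3 treated libraries (0.069 to 0.098). It was also lost with RLE scaling (0.084, edgeR adjusted p = 0.0632) and with DESeq2 (0.084, adjusted p = 0.0515). At 24 h both baselines gave lower calls: 0 members were higher and 6 lower than set 2 (39% and 36.9% of all genes), and 1 was higher and 6 lower than set 1 (39.8% and 33.3%). FOSL1 was the exception at 24 h, with a log2 fold change of 0.07 against set 2, not called (edgeR adjusted p = 0.171), and 0.18 against set 1. The 2 comparisons share their treated libraries, as all times share their untreated libraries. On TPM in place of scaled counts the median of all genes moved by 0.165 to 0.319 against set 1 and by -0.0716 to 0.0823 against set 2. The share of higher among all called genes at 3 nM and 1 h then moved from 52.4% to 94.7% against set 1 and from 47.3% to 74.6% against set 2. Small differences from set 1 can therefore change sign with the scale.

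Summed over the 6 times, a dose gave 42 member tests against each set. At 0.01 nM 37 were called lower than set 1 and 3 higher (21.4% and 21.1% of all gene tests), and 30 lower than set 2 and 9 higher (22.9% and 21.3%). Of these 37, the 5 at 1 h (FOS, FOSB, JUN, JUNB and JUND) were not called with limma on log2(TPM + 0.1) (adjusted p = 0.111 to 0.599). At 0.2 nM 34 were lower than set 1 and 4 higher (25.9% and 27.2%), and 30 lower than set 2 and 9 higher (26.7% and 26.2%). At 3 nM 29 were lower than set 1 and 13 higher (28.5% and 33.5%), and 22 lower than set 2 and 18 higher (29% and 30.1%). At 0.01 and 0.2 nM the members' lower calls were above the share of all genes against either set, as they were at 3 nM against set 1, and less so against set 2. At 8 h and later the median log2 fold change of the 7 members lay between -2.46 and -1.06 in all 18 such comparisons, where the median of all genes lay between -0.0064 and 0.085.

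**Figure D2:**
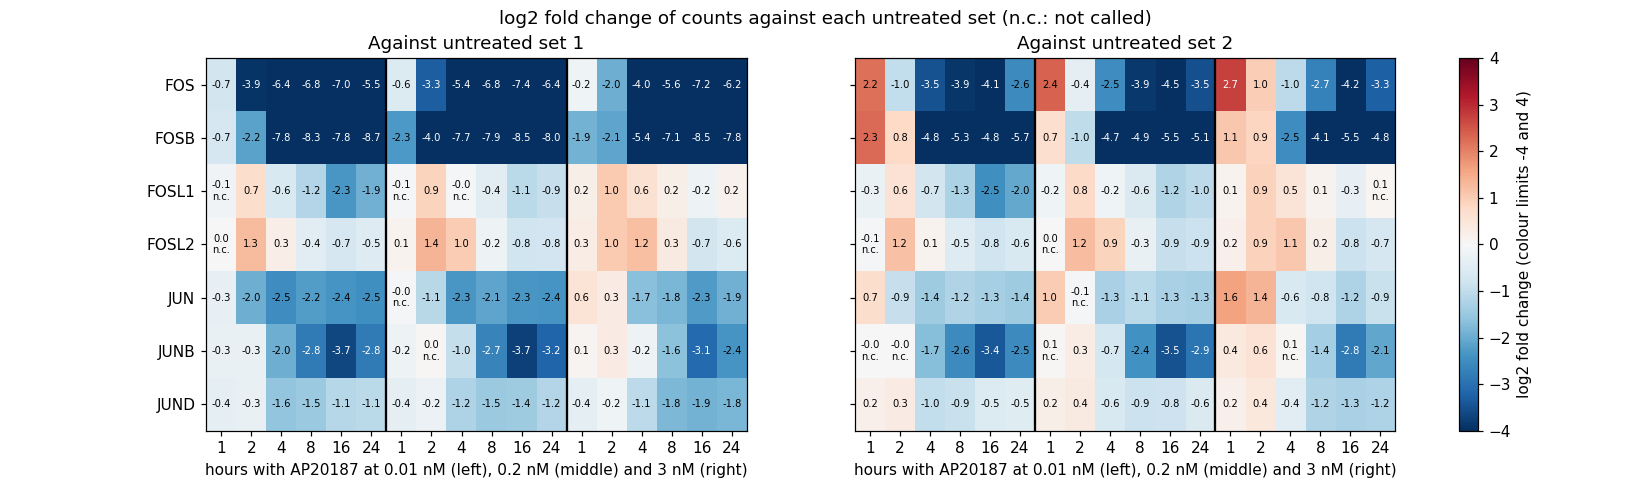
Log2 fold changes of counts of the 7 genes at each dose and time, against untreated set 1 (left) and set 2 (right), with n.c. where the adjusted p missed 0.05. At 1 h FOS is blue against set 1 and red against set 2 at all 3 doses, while from 8 h FOS, FOSB, JUN, JUNB and JUND are blue in both panels. With limma on log2(TPM + 0.1) these 3 FOS differences from set 1 were not called (-0.44, -0.24 and 0.068, adjusted p = 0.111, 0.386 and 0.815).

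FOS, the founding member and main partner of JUN, was near its highest level after 1 h and fell fast. At 3 nM its TPM was 411, 478 and 505 at 1 h, 114, 134 and 143 at 2 h, 31.0, 37.3 and 33.1 at 4 h and 10.5, 10.5 and 10.0 at 8 h, so that no library of one time overlapped the next. The lowest values came at 16 h (3.65, 4.36 and 3.22 TPM). At 24 h FOS was at 6.85, 6.98 and 7.36 TPM, higher than at 16 h by 0.96 (SE 0.203, edgeR adjusted p = 0.000274). Against set 2 the log2 fold change was 2.75 at 1 h, 0.97 at 2 h, -1.04 at 4 h, -2.70 at 8 h, -4.23 at 16 h and -3.26 at 24 h. Against set 1 it was -0.19 at 1 h, where the libraries overlapped, and -7.16 at 16 h. That 1 h call was lost without set 1 replicate 2 or 3 (-0.19 and -0.032) or 3 nM replicate 1 (-0.15), and with DESeq2 (adjusted p = 0.122).

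FOS fell sooner at the lower doses. After 1 h it was at 352, 352 and 275 TPM at 0.01 nM and at 345, 375 and 408 TPM at 0.2 nM. After 2 h it was at 37.2, 42.0 and 30.9 TPM at 0.01 nM and at 56.7, 58.6 and 54.1 TPM at 0.2 nM, below each library of 3 nM. The 3 doses thus stood in the order of dose at 2 h with no overlap. At 4 h they did so again, with 6.07 to 8.11 TPM at 0.01 nM and 11.4 to 14.9 TPM at 0.2 nM. FOS was higher at 3 than at 0.2 nM by 0.37 at 1 h, a call that was lost with limma on TPM at either pseudocount (0.30, adjusted p = 0.456 and 0.357). The difference was 1.32 at 2 h (SE 0.101, edgeR adjusted p = 4.21e-16), 1.45 at 4 h and 1.16 at 8 h, and was not called at 16 or 24 h (0.27 and 0.25). It was higher at 0.2 than at 0.01 nM by 0.64 at 2 h and 1.00 at 4 h. At 24 h the order of these 2 was the opposite: 12.3, 12.4 and 14.6 TPM at 0.01 nM stood above 6.35, 6.35 and 6.62 TPM at 0.2 nM (log2 fold change -0.96, SE 0.244, edgeR adjusted p = 0.000746).

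FOSB, the nearest relative of FOS, had the lowest mean TPM of the 7 members in each group, untreated sets included. At 0.01 nM it was at 57.5, 54.4 and 36.7 TPM at 1 h, 32.4, 28.0 and 4.80 TPM at 2 h and 0.337, 0.689 and 0.708 TPM at 4 h. Replicate 3 stood apart at 2 h. Without it the log2 fold change from 1 to 2 h was -0.95 in place of -1.47, and the difference from set 2 at 2 h was 1.34 in place of 0.81. The latter call was lost without replicate 1 (0.44) or 2 (0.48) of the same group. At 0.2 nM FOSB was at 20.8, 19.6 and 16.3 TPM at 1 h and at 5.10, 6.92 and 6.5 TPM at 2 h, and at 3 nM at 20.6, 23.3 and 22.2 and then at 13.5, 20.7 and 22.6 TPM. At 1 h the libraries of 0.01 nM thus stood above those of the other doses, by 1.61 over 0.2 nM on the log2 scale (SE 0.217, edgeR adjusted p = 1.46e-06). DESeq2 gave no adjusted p for that test, and limma on log2(TPM + 0.1) gave a difference of -1.37 with an adjusted p of 0.14.

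From 2 to 4 h FOSB fell by 5.62 at 0.01 nM, by 3.68 at 0.2 nM and by 3.33 at 3 nM. From 4 to 24 h the shallow libraries held 1 to 9 FOSB counts each, so that differences between these times and between 0.01 and 0.2 nM were not detectable at this depth. At 3 nM, with 72, 88 and 129 counts at 4 h and 20, 18 and 19 at 24 h, it fell by 1.65 from 4 to 8 h (SE 0.485, edgeR adjusted p = 0.00389). Its level at 24 h was 0.268 ± 0.122 TPM at 0.01 nM (SD, n = 3), 0.446 ± 0.16 at 0.2 nM and 0.441 ± 0.067 at 3 nM, which overlapped. FOSB was higher at 3 than at 0.2 nM by 1.87 at 2 h. The call at 4 h (2.21) was lost without 0.2 nM replicate 1, 2 or 3 (2.2, 2.03 and 2.46) or 3 nM replicate 3 (2.07).

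FOSL1 (ENSG00000175592.8, chromosome 11, 65892049 to 65900573) stood in the order of dose at all 6 times with no overlap between doses. At 1 h it was at 144 to 151 TPM at 0.01 nM, 154 to 165 TPM at 0.2 nM and 188 to 208 TPM at 3 nM. It stood highest at 2 h at each dose, at 273, 253 and 233 TPM at 0.01 nM, 292, 297 and 293 TPM at 0.2 nM and 326, 317 and 312 TPM at 3 nM. From 1 to 2 h it rose by 0.83, 0.94 and 0.80 at the 3 doses. It then fell to 31.3 ± 1.47 TPM at 16 h at 0.01 nM (SD, n = 3), to 77.3 ± 3.22 at 0.2 nM and to 129 ± 3.87 at 3 nM. At 24 h it was at 41.4, 42.0 and 41.8 TPM, then 92.6, 82.6 and 82.3 TPM, then 177, 172 and 171 TPM, in the order of dose and with no overlap. These compare with 133, 132 and 134 TPM in untreated set 1 and 180, 167 and 159 TPM in set 2.

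At 1 h the step from 0.01 to 0.2 nM was not called (0.08, edgeR adjusted p = 0.645) and that to 3 nM was 0.31 (SE 0.051, edgeR adjusted p = 3.45e-06). At 2 h both small steps were called, but the lower one (0.19) was lost without 0.01 nM replicate 2 or 3 or 0.2 nM replicate 2 (0.18, 0.12 and 0.17). The upper one (0.16) was lost without 0.2 nM replicate 1 or 3 (0.14 and 0.13) and with limma on TPM at either pseudocount (0.11). From 4 h on FOSL1 was higher at 0.2 than at 0.01 nM by 0.58 at 4 h, 0.71 at 8 h, 1.26 at 16 h and 0.99 at 24 h (SE 0.0728, edgeR adjusted p = 6.8e-18). The step to 3 nM added 0.67, 0.69, 0.86 and 1.11 at the same times (at 24 h SE 0.055, edgeR adjusted p = 6.18e-25). Against set 2 FOSL1 was lower at 24 h by 2.04 at 0.01 nM and 1.04 at 0.2 nM. At 3 nM it rose again from 16 to 24 h, by 0.40, as it did at 0.01 nM, by 0.42, while the 0.15 at 0.2 nM was not called. The 3 nM libraries were the deep ones, so the step from 0.2 to 3 nM was also a step in depth, and these cannot be told apart. The step from 0.01 to 0.2 nM lay within the shallow libraries, and a fit of those alone gave the same calls for FOSL1.

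FOSL2 (ENSG00000075426.11, chromosome 2, 28392448 to 28417312) rose at 2 h and ended below both untreated sets at each dose. It was at 271, 275 and 282 TPM at 2 h at 0.01 nM, 303, 327 and 303 TPM at 0.2 nM and 241, 246 and 228 TPM at 3 nM, so that the high dose stood below the other 2. FOSL2 was lower at 3 than at 0.2 nM by 0.31 at 2 h (SE 0.0367, edgeR adjusted p = 7.86e-10), and the step from 0.01 to 0.2 nM (0.07) was not called (edgeR adjusted p = 0.23). At 4 h it was at 118, 136 and 120 TPM at 0.01 nM, 208, 237 and 225 TPM at 0.2 nM and 228, 263 and 252 TPM at 3 nM, where the 2 higher doses overlapped. The peak was thus longer at the higher doses: from 2 to 4 h FOSL2 fell by 1.02 at 0.01 nM and by 0.35 at 0.2 nM, while at 3 nM it was called higher by 0.15 with overlapping libraries, a call lost with limma on log2(TPM + 0.1) (0.055, adjusted p = 0.686). At 8 h 3 nM still stood at 152, 133 and 144 TPM, above each library of 0.2 nM (89.7, 93.6 and 113 TPM) by 0.54 on the log2 scale. At 16 and 24 h all doses lay between 62.0 and 79.8 TPM, against 90.3 to 107 TPM in untreated set 1 and 128 to 133 TPM in set 2.

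**Figure D3:**
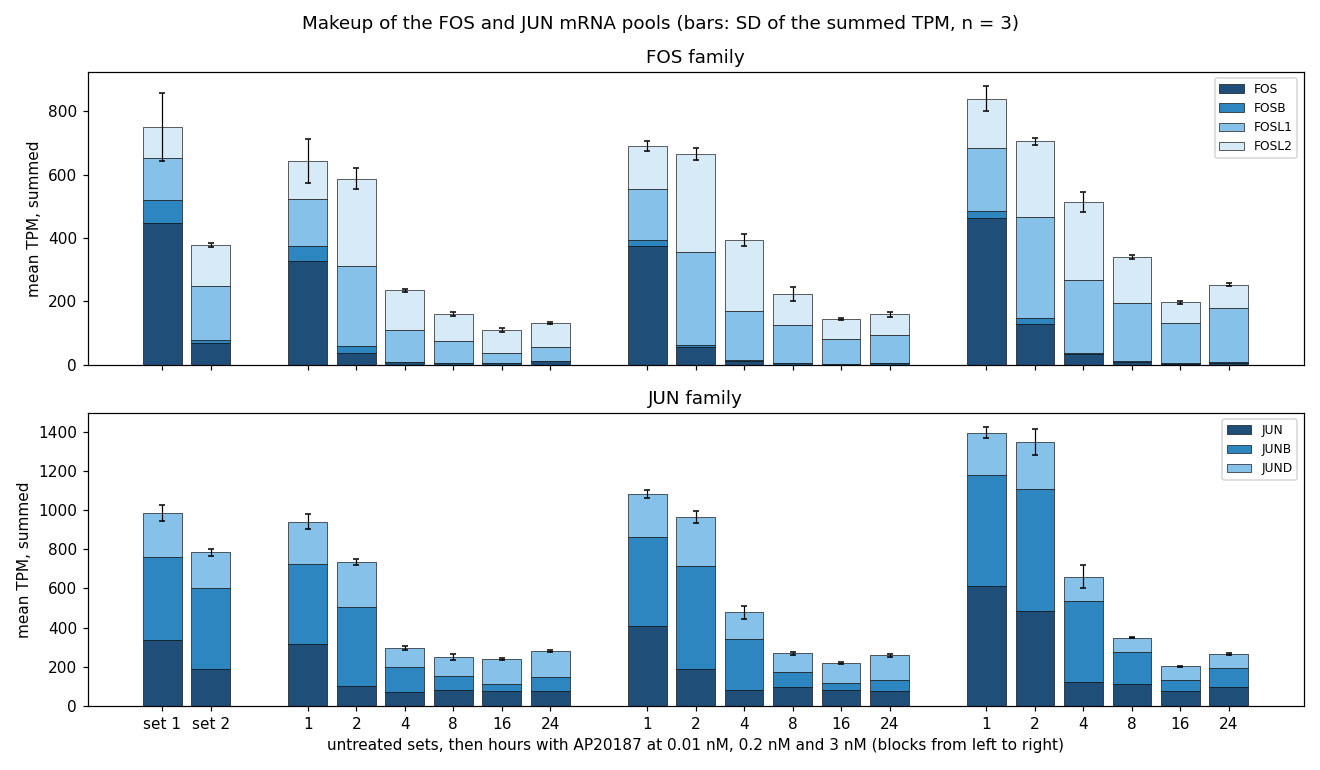
Mean TPM of the members of each family, stacked, in the untreated sets and at each dose over time, with the SD of the sum over 3 libraries. FOS makes up most of its family in untreated set 1 and at 1 h, and FOSL1 and FOSL2 make up nearly all of it from 2 or 4 h on.

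The mix of FOS family mRNA changed with time and dose. FOS took 59.3% ± 4.21 of the summed FOS family TPM in untreated set 1 (SD, n = 3) and 17.9% in set 2. At 1 h it took 50.7%, 54.4% and 55.2% at 0.01, 0.2 and 3 nM, and at 2 h 6.23%, 8.47% and 18.5%. At 24 h FOSL1 took 31.8% at 0.01 nM, 53.95% at 0.2 nM and 68.2% at 3 nM, and FOSL2 took 58.0%, 41.7% and 28.8%. The main FOS family mRNA at 24 h was therefore FOSL2 at the low dose and FOSL1 at the other 2. The summed level fell from 841 TPM at 1 h to 198 TPM at 16 h at 3 nM, and from 643 to 109 TPM at 0.01 nM. Shares are parts of a whole and carry no test here.

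JUN (ENSG00000177606.6, chromosome 1, 58780788 to 58784327), a target of JNK kinases that binds its own promoter, was higher with each dose in the first hours. At 1 h it was at 327, 317 and 299.8 TPM at 0.01 nM, 399, 412 and 411 TPM at 0.2 nM and 584, 615 and 632 TPM at 3 nM. At 2 h it was at 102, 107 and 92.6 TPM, then 178, 202 and 187 TPM, then 422, 509 and 527 TPM, again with no overlap between doses. Untreated set 1 stood at 307, 336 and 368 TPM and set 2 at 182, 191 and 197 TPM. Against set 2 JUN was higher at 1 h by 0.70, 1.01 and 1.60 at the 3 doses, and against set 1 it was higher at 3 nM by 0.56 (SE 0.051, edgeR adjusted p = 1.05e-13). It was higher at 3 than at 0.2 nM by 0.59 at 1 h, 1.42 at 2 h (SE 0.0532, edgeR adjusted p = 3.86e-29) and 0.68 at 4 h, and at 0.2 than at 0.01 nM by 0.30 at 1 h and 0.85 at 2 h.

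From 4 h JUN lay below both untreated sets at each dose, but its level still moved. It fell between 1 and 2 h by 1.62 at 0.01 nM, by 1.07 at 0.2 nM and by 0.25 at 3 nM, and between 2 and 4 h the log2 fold changes were -0.51, -1.23 and -1.97, so that the larger of these 2 falls was the first at 0.01 nM and the second at the other doses. Its mean at 4 h was 70.6, 80.5 and 121 TPM at the 3 doses, and at 8 h 83.2, 94.7 and 112 TPM. At 16 h the 3 doses lay at 75.1 ± 3.01, 79.5 ± 2.15 and 76.5 ± 1.82 TPM (SD, n = 3), and neither dose step was called. At 24 h 3 nM stood at 98.9, 98.5 and 97.3 TPM, above each library of 0.01 nM (71.3 to 75.4 TPM) and 0.2 nM (77.9 to 79.3 TPM), and was higher than 0.2 nM by 0.42 (SE 0.0565, edgeR adjusted p = 4.1e-09). Against set 2 JUN was lower at 24 h by 1.41, 1.31 and 0.89 at the 3 doses.

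JUNB (ENSG00000171223.5, chromosome 19, 12791496 to 12793315), a weaker activator that competes with JUN, was not called lower than untreated set 2 in the first 2 h at any dose. Against set 1 it was called lower at 1 and 2 h at 0.01 nM (-0.29 and -0.28) and at 1 h at 0.2 nM (-0.21). With limma on log2(TPM + 0.1) none of these 3 was called, and the values were -0.051, -0.067 and 0.097. At 16 h JUNB had fallen furthest of the 3 JUN genes at each dose (log2 fold change against set 2 -3.38, -3.47 and -2.84). At 3 nM it was at 570, 564 and 569 TPM at 1 h, 614, 616 and 630.2 TPM at 2 h, 381, 433 and 428 TPM at 4 h, 163, 161 and 162 TPM at 8 h and 55.1, 54.1 and 52.5 TPM at 16 h. At 0.01 nM the fall came earlier, from 410.2, 397 and 404 TPM at 2 h to 122, 127 and 129 TPM at 4 h (log2 fold change -1.68, SE 0.0449, edgeR adjusted p = 3.63e-37). At 4 h the doses stood in their order with no overlap, 0.2 nM lying at 237, 269 and 284 TPM. JUNB was higher at 3 than at 0.2 nM at all 6 times, by 0.28 at 2 h up to 1.05 at 8 h. It was higher at 0.2 than at 0.01 nM by 0.32 at 2 h and 1.01 at 4 h, and lower by 0.39 at 24 h. From 16 to 24 h it rose at each dose, by 0.84, 0.54 and 0.76, to 72.2 ± 2.6, 54.6 ± 2.04 and 93.1 ± 4.31 TPM (SD, n = 3), against 403 to 436 TPM in the libraries of both untreated sets.

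JUND (ENSG00000130522.5, chromosome 19, 18279760 to 18281622), the member made in resting cells, lay at like levels at the 3 doses at 1 and 2 h and was lowest at 3 nM from 8 h on. At 1 h the doses lay at 217 ± 14.4, 220.3 ± 4.68 and 217 ± 5.48 TPM (SD, n = 3) and overlapped, and neither dose step was called at 1 or 2 h. At 4 h the libraries of 0.2 nM (125 to 143 TPM) stood above those of 0.01 nM (86.6 to 110 TPM), and those of 3 nM (108 to 136 TPM) overlapped both. The step to 3 nM at 4 h was called higher on counts (0.16). With limma on log2(TPM + 0.1) it was -0.086 (adjusted p = 0.457). JUND fell from 2 to 4 h by 1.30, 0.98 and 0.88. From 4 to 8 h it fell by 0.25 at 0.2 nM and by 0.75 at 3 nM (SE 0.0441, edgeR adjusted p = 1.14e-21), and was not called at 0.01 nM (0.10). It then rose from 8 to 16 h at 0.01 nM, by 0.34, and from 16 to 24 h at 0.2 nM, by 0.26, and neither step was called at 3 nM. At 24 h it was at 132, 134 and 136 TPM at 0.01 nM, 117, 132 and 126 TPM at 0.2 nM and 72.2, 68.3 and 73.8 TPM at 3 nM, where only 3 nM stood apart. JUND was lower at 3 than at 0.2 nM by 0.34 at 8 h, 0.47 at 16 h and 0.66 at 24 h (SE 0.0485, edgeR adjusted p = 9.19e-18).

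The 3 JUN genes changed places over time. JUNB led at 4 h at each dose, with 42.8%, 55.2% and 62.8% of the summed JUN family TPM at 0.01, 0.2 and 3 nM. At 24 h JUND took 47.9%, 48.4% and 27.2% at the 3 doses, JUN 26.4%, 30.4% and 37.4%, and JUNB 25.8%, 21.2% and 35.4%. JUND was thus the most abundant JUN gene at the 2 lower doses and the least abundant at 3 nM. The summed TPM of the 3 JUN genes was 1395 at 1 h and 201 at 16 h at 3 nM, and 986 in untreated set 1 and 784 in set 2.

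**Figure D4:**
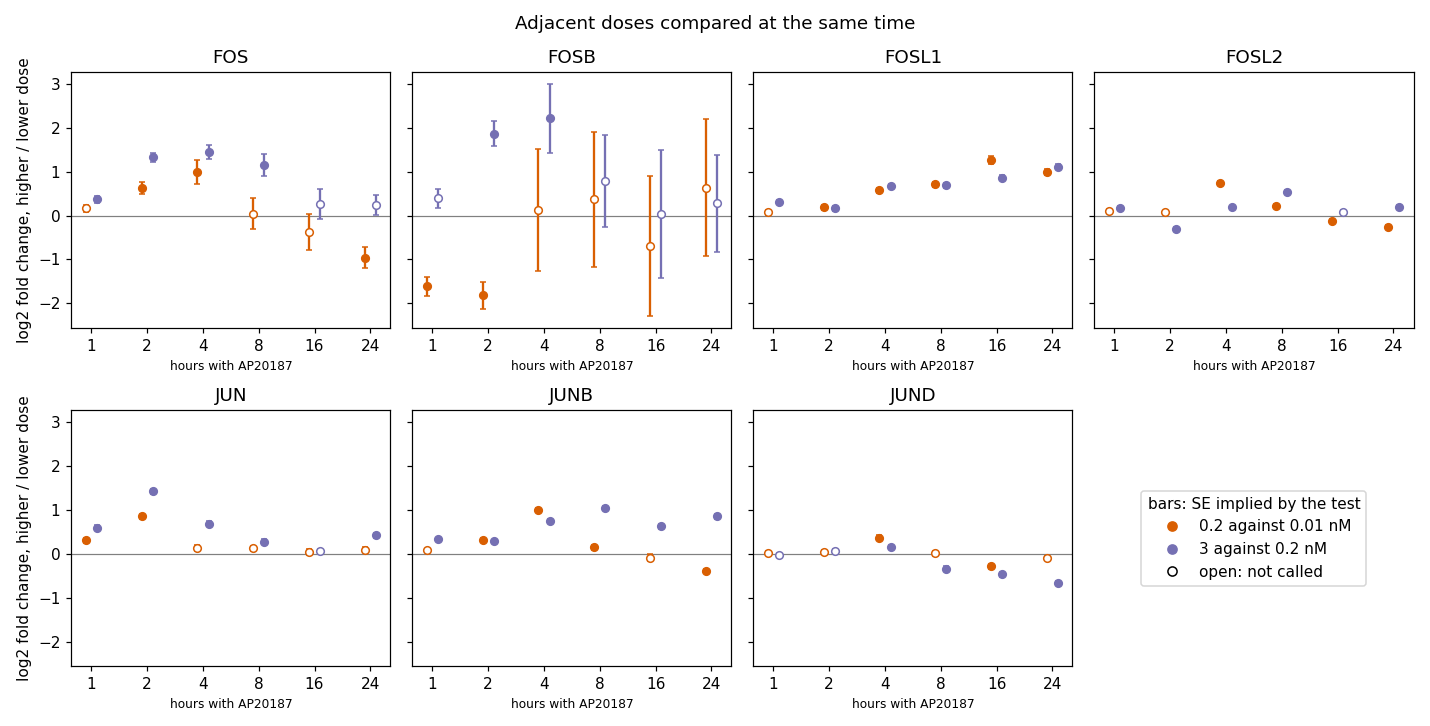
Log2 fold changes of counts between adjacent doses at the same time for each gene, with bars of 1 SE and open points where the adjusted p missed 0.05. FOSL1 lies above 0 for both steps at 4 to 24 h, JUND falls below 0 for the step to 3 nM from 8 h, and the bars of FOSB are wide from 4 h, where its counts are few.

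Over the 42 tests of each dose step, 15 members were called higher and 7 lower at 0.2 than at 0.01 nM (14.8% and 13.1% of all gene tests), and 28 were called higher and 4 lower at 3 than at 0.2 nM (23.2% and 16.9%). The 4 lower calls were FOSL2 at 2 h and JUND at 8, 16 and 24 h. The change from 1 to 24 h differed between 3 and 0.2 nM for 3 of 7 members (36.1% of all genes) and between 0.2 and 0.01 nM for 5 of 7 (38.2%). FOSB, with 3 to 9 counts in each of these libraries at 24 h, was not among the 5 (log2 difference 2.24, SE 1.58, edgeR adjusted p = 0.281), but was called with DESeq2 (2.23, adjusted p = 0.0052), with no filter (2.23, edgeR adjusted p = 0.0004) and with limma on log2(TPM + 0.1) (1.94, adjusted p = 0.0224) and log2(TPM + 1) (1.51, adjusted p = 0.00649). FOSL1 was in both, with a smaller fall at the higher dose each time: its mean TPM at 24 h was 0.283 of that at 1 h at 0.01 nM, 0.536 at 0.2 nM and 0.877 at 3 nM. The markers of mesenchymal cells also fell with dose, from a summed 5171 to 5236 TPM in the libraries of untreated set 2 to 1707 to 1727 TPM at 3 nM and 24 h. There 6 of 6 were called lower than either set (36.9% of all genes against set 2 and 33.3% against set 1). The epithelial markers summed to 964.2 to 990.1 TPM in set 2 and 759.7 to 824.9 TPM in set 1. At 3 nM they stood at 1149 to 1200 TPM at 8 h and 655.4 to 659.6 TPM at 24 h, against 590.5 to 609.8 TPM at 0.2 nM and 24 h. At 3 nM and 24 h 5 of 5 tested were called lower than set 2 and 4 of 5 than set 1. The part of either marker list in these results was not tested.

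Between adjacent times there were 35 member tests per dose. At 0.01 nM 8 were called higher and 16 lower (14.5% and 14.5% of all gene tests), at 0.2 nM 7 and 19 (14.4% and 13.6%) and at 3 nM 10 and 20 (21% and 19.2%). The calls were not spread evenly over the steps. From 2 to 4 h all 7 members fell at 0.01 and 0.2 nM and 6 at 3 nM, FOSL2 being the exception. Of all 18040 genes, 2772, 3039 and 4477 were called lower in that step at 0.01, 0.2 and 3 nM. From 4 to 8 h all 7 fell at 3 nM, against 3 at 0.01 nM and 5 at 0.2 nM. The genes called lower then numbered 2402, 2842 and 3758 at the 3 doses in order. From 16 to 24 h 0 members fell at any dose, while 4, 2 and 5 rose. Over all genes 1885, 751 and 1735 were called higher in this last step and 2378, 1092 and 2069 lower.

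The genes around AP-1 were followed as fixed lists at 24 h. Against set 2 the background was 39% of all genes called higher and 36.9% lower at 3 nM, 32% and 31.4% at 0.2 nM, and 19.7% and 21.9% at 0.01 nM. Against set 1 it was 39.8% and 33.3% at 3 nM, 32.2% and 28.9% at 0.2 nM, and 18.9% and 20.2% at 0.01 nM. Of the 17 tested other immediate early genes, 15 fell and 2 rose at 3 nM against set 2 (median log2 fold change -1.55, against 0.0043 over all genes), and 17 fell at 0.01 nM (median -2.88). Against set 1 15 fell and 2 rose at 3 nM (median -2.32), and 17 fell at 0.01 nM (median -3.20). EGR2, a zinc finger factor, fell from 111 ± 3.08 to 0.698 ± 0.239 TPM at 3 nM (SD, n = 3, log2 fold change -7.61). EGR4 fell by 5.35, and the orphan nuclear receptors NR4A2 and NR4A3 changed by -5.07 and -4.91. Of 10 tested bZIP partners, 5 rose and 4 fell at 3 nM against set 2 and 5 rose and 3 fell against set 1, near the shares of all genes. Among them ATF4, the main factor of the integrated stress response, rose from 333 ± 7.18 to 811 ± 2.74 TPM, BATF3 rose by 1.95 and MAFG, a small MAF protein, by 0.97, while MAF fell by 3.34. At 0.01 nM 2 of the 10 rose and 5 fell against either set.

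The counts among regulators of the FOS genes lay near the shares of all genes at 3 nM and 24 h. Of 8 tested SRF, ternary complex and CREB factors, 4 rose and 3 fell against set 2, and 5 rose and 3 fell against set 1. CREM rose by 0.90 and ELK3, a ternary complex factor, by 0.51. SRF, which binds the serum response element of FOS, fell by 0.57 against set 2 and by 0.28 against set 1, and its coactivator MKL2 fell by 1.19 and by 1.02. The untreated sets themselves differed, with SRF at 56.96 ± 1.19 TPM in set 1, 80.5 ± 1.13 in set 2 and 51.99 ± 0.603 at 3 nM and 24 h (SD, n = 3). Of 17 genes of the MAP kinase modules 9 rose and 6 fell against set 2 (8 and 6 against set 1), with MAP2K1 up by 0.96, BRAF up by 0.65, MAP2K7 up by 0.51 and MAPK3 (ERK1) down (log2 fold change -1.13). Of 8 AU-rich element binding proteins 4 rose and 4 fell against set 2 (3 and 4 against set 1). ZFP36, itself an immediate early gene that promotes decay of AU-rich mRNAs, fell from 34.3 ± 1.82 to 7.09 ± 0.551 TPM (SD, n = 3, log2 fold change -2.33). ZFP36L1 fell by 0.96 and ZFP36L2 by 0.68, and TIAL1 rose by 0.79.

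The counts of textbook AP-1 target genes differed with dose and baseline. Of 17 tested, 12 rose and 5 fell at 3 nM and 24 h against set 2 (median 0.71), 4 rose and 8 fell at 0.2 nM (median -0.20), and 2 rose and 10 fell at 0.01 nM (median -0.45). Against set 1 10 rose and 5 fell at 3 nM (median 0.61), 4 rose and 11 fell at 0.2 nM (median -0.61), and 2 rose and 11 fell at 0.01 nM (median -0.92). CXCL8, a chemokine that attracts neutrophils, had a mean of 66.6 ± 11.8 TPM in set 2 (SD, n = 3). At 24 h it was 1.70 ± 0.0761 TPM for 0.01 nM, 9.64 ± 1.76 TPM for 0.2 nM and 282 ± 28.8 TPM for 3 nM. The matrix metalloproteinase MMP3 rose at 3 nM from 0.910 to 20.3 TPM (log2 fold change 4.64). MMP10 rose by 2.49 from a low level, its mean going from 0.495 TPM in set 2 (0.862 TPM in set 1) to 2.83 TPM. MMP13 fell by 2.75, its mean going from 1.31 to 0.240 TPM. From 1 to 2 h 16, 14 and 12 of the 17 rose at 0.01, 0.2 and 3 nM and 0 fell, where 15.5%, 17% and 19.3% of all genes were called higher and 12.7%, 12.7% and 12% lower. The differences between doses of these counts were not tested.

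Likeness of pattern was measured as Pearson's r over the 18 treated group means of log2 CPM (counts scaled to library size), among 16371 genes, which share their libraries and depth. FOS was most like EGR2 (r = 0.981) and ZFP36 (0.969), and FOSB most like the nuclear receptor NR4A2 (0.964) and EGR2 (0.958). FOSL1 was most like MAFF (0.967), a small MAF protein, and ARC (0.960). FOSL2 was most like WWP2 (0.979), a ubiquitin ligase, and TBC1D10A (0.975). JUN was most like MYLIP (0.962) and ZNF432 (0.952), JUNB most like IER3 (0.989) and ZC3H12A (0.982), and JUND most like FOXN3 (0.962) and TMEM170B (0.958). Within the family FOS and FOSB were most alike (0.946), followed by FOS and JUN (0.927), and FOSL2 and JUN were least alike (0.384).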

How the data were processed

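Strand-specific RNA libraries were sequenced, per the labels' protocols. The values used are the estimated counts and, in a second table, the TPM that the authors deposited for each gene. Salmon 0.9.1, FastQC 0.11.5 and the build GRCh38 are named in the submitters' processing notes, with no annotation release stated. Of the nonzero estimated counts deposited, 54.2% lay within 1e-06 of a whole number. Counts were rounded before testing. Positions come from GENCODE 29.

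Counts were tested in edgeR 4.0.16 (R 4.3.3) by its quasi-likelihood test, with TMM scaling and filterByExpr (18040 genes). All 60 libraries entered 1 fit with 20 group means (40 residual degrees of freedom), and 66 contrasts were adjusted by the Benjamini-Hochberg method within each contrast over all genes tested. A gene was called higher or lower at an adjusted p under 0.05. Log2 fold changes in the text are from these counts. SEs were derived from the log2 fold change and the F statistic. The common dispersion was 0.00129, so differences of a few percent can pass, and size carries more than p. The script was tested on simulated data. Levels are compared between genes only by TPM.

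Alternatives were DESeq2 1.42.0, RLE scaling, no filter, a replicate block, limma 3.58.1 on log2(TPM + 0.1) and log2(TPM + 1), each library left out, fits within libraries of like depth and, for counts of calls against untreated, the mean of both untreated sets. Reads carried no molecular identifiers. No pair of replicates agreed within sampling noise (chi-square per degree of freedom 1.371 to 21.86).

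The members and gene lists were chosen with earlier results of these data known. Genes named in the text are the 7 members, for each member the 2 genes most like it (mean of at least 1 TPM over the treated libraries), and from each list the up to 4 called genes with the largest change at 3 nM and 24 h against untreated set 2.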

Additional observations from a re-analysis of the deposited data

Results flagged for a closer look

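These results were singled out because a gene's change from 1 to 24 h differed between 2 doses, by a test of the difference itself in edgeR's quasi-likelihood fit. Between 3 and 0.2 nM the log2 difference was 0.80 for FOSL1 (SE 0.0755, adjusted p = 3.8e-13), 0.52 for JUNB (SE 0.0629, adjusted p = 7.25e-10) and -0.64 for JUND (SE 0.0649, adjusted p = 5.28e-12). FOSL1 and JUNB thus fell less at 3 nM, and JUND fell more. Between 0.2 and 0.01 nM it was 0.92 for FOSL1 (SE 0.0935, adjusted p = 3.34e-12), -1.13 for FOS (SE 0.258, adjusted p = 0.000296), -0.47 for JUNB (SE 0.069, adjusted p = 8.68e-08), -0.36 for FOSL2 (SE 0.0574, adjusted p = 7.5e-07) and -0.21 for JUN (SE 0.0806, adjusted p = 0.0353).

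JUNB thus differed in opposite directions at the 2 dose steps. The JUN difference was lost without any 1 of 7 libraries (0.01 nM 1 h replicate 3, 0.01 nM 24 h replicates 1 and 3, 0.2 nM 1 h replicates 2 and 3, 0.2 nM 24 h replicates 1 and 3), where it lay between -0.205 and -0.181. The 3 nM libraries were deeper than the 0.2 nM libraries, and the part of depth in the first 3 differences was not tested.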

How the results depend on the processing

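Of 462 member results, 451 of the 461 with an adjusted p kept direction and side of the threshold with DESeq2 (5 calls lost, 5 gained), 459 with RLE scaling, 443 with no filter (19 gained), 402 and 406 with limma on log2(TPM + 0.1) and log2(TPM + 1), and 276 of 280 within libraries of like depth. Leaving out 1 library kept 2797 of 2856, with 52 calls lost, 7 gained and 0 reversed. With the replicate block 461 of 462 were kept. The exception was FOS at 0.2 nM, 24 against 16 h, not called in the test on counts (edgeR adjusted p = 0.0598) but called with the block (0.99, edgeR adjusted p = 0.0267), as with DESeq2 (0.999, adjusted p = 0.000172), no filter (1.02, edgeR adjusted p = 1.58e-06) and both limma settings (1.16 and 0.95). Deviations from the group mean had a median r of 0.00913 between same-numbered libraries (range -0.292 to 0.307, 50 of 570 pairs over 0.1). The median between libraries of other numbers was -0.00694, and 32 of 60 libraries were closest to their own number. Whether the numbers pair the samples was not settled by these values.

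On TPM 12 results changed sign with both pseudocounts, all of them small in the test on counts. Against set 1 these were FOSL1 (0.15), at 0.01 nM and 1 h, JUND at 0.01 nM and 2 h (0.021), JUNB (0.097 and 0.096), FOSL1 (0.27 and 0.26) and JUN (0.28) at 0.2 nM and 1 h, JUND at 0.2 nM and 2 h (0.15), FOSL1 at 0.2 nM and 4 h (0.23), FOSL2 at 0.2 nM and 8 h (0.013), and FOS (0.068 and 0.067) and JUND (0.10 and 0.0998) at 3 nM and 1 and 2 h. The others were FOSL2 at 0.01 nM and 4 h against set 2 (-0.084 and -0.083) and JUND at 3 against 0.2 nM at 4 h (-0.086). With limma on log2(TPM + 0.1) FOSL1 at 0.2 nM was called higher than set 1 at 1 h (adjusted p = 0.000409) and 4 h (adjusted p = 0.00108). JUN at 0.2 nM and 1 h (adjusted p = 0.000561) and FOSL1 at 0.01 nM and 1 h (adjusted p = 0.049) were also called higher than set 1 there. Of 378 called member tests, 28 had TPM ranges that did not lie apart in the direction called.

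Counts of calls moved by over 1.5 times only for higher calls: at 0.01 nM against set 1 from 3 to 5 (both limma settings) or 6 (mean of both sets), at 0.2 nM against set 1 from 4 to 8, between adjacent times at 3 nM from 10 to 6 (both limma settings each), and in set 2 against set 1 from 1 to 0 (RLE, DESeq2) or 2 (no filter, limma), with 0 to 1 on leaving out a library. The cause was not tested. Among all genes, the TPM scale put the share of higher calls at 64.9 to 97.5% against set 1 (45 to 54.8% on counts), at 43.5 to 74.6% against set 2 (42.3 to 53.6%) and at 30.4 to 86.3% between treated groups (40.7 to 61.7%).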
